A study of Mus musculus with 12 samples.

Results

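The 31 genes described here make cholesterol and fatty acids or control how much of them a cell makes. They were chosen by name from the sterol regulatory element binding protein (SREBP) pathway. All 31 were among the 47359 gene rows of the count table, and all 31 were among the 21565 genes that passed the filter on low counts. By role they were 18 enzymes of sterol synthesis, 5 genes of SREBP control and sterol transport, and 8 enzymes of fatty acid synthesis.

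RNA was sequenced in bulk from TH17 cells, the CD4+ T helper cells known for making IL-17. The cells had been transferred into RAG2-/- mice, whose own lymphocytes do not develop, and were sorted from the central nervous system (CNS) when disease was at its peak. The groups were DKO CXCR6+ and DKO SLAMF6+ (genotype 2D2-IL-17A/F-DKO, lacking IL-17A and IL-17F, 1 library each), then WT CXCR6+ and WT SLAMF6+ (genotype 2D2-WT, 5 libraries each). By their labels all 4 groups carry the 2D2 transgene, a T cell receptor that recognises a myelin protein, though receptor counts of the DKO libraries go against this (given with the library totals). CXCR6 is a chemokine receptor and SLAMF6 a surface receptor of lymphocytes, and each library came from 1000 living cells sorted for one of them. The sources used here give no age or sex of the mice. Library names end in m1 to m5 in each WT group and in m0 in both DKO groups. What the suffix stands for is not stated, nor whether the 5 libraries of a WT group came from separate hosts. P-values therefore measure the spread between these libraries.

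Cells make cholesterol from acetyl-CoA through mevalonate, farnesyl diphosphate, squalene and lanosterol, and fatty acids from acetyl-CoA through malonyl-CoA. SREBP proteins sit in the endoplasmic reticulum with their escort SCAP, and INSIG proteins hold them there when sterols are plentiful. When sterols run low, SCAP carries the SREBPs to the Golgi, where they are cut, and the freed part enters the nucleus and switches on both sets of enzymes together with the neighbouring factor NF-Y. Activated T cells use this pathway to build membranes before they divide, and intermediates of sterol synthesis have been described as ligands of RORγt, the transcription factor that defines TH17 cells.

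Promoter windows were available in RefSeq (GRCm38.p6) for 24 of the 31 genes, each running from 250 bases before to 50 bases after the start of transcription. A few genes have more than 1 window. Windows of 5 genes are shown because the results below turn on these genes: Hmgcs1 as the only window with the sterol element searched for, Insig1 as a sterol-controlled regulator, Ebp as the only gene of the 31 called higher in the DKO libraries, Fasn as the gene with the largest opposite difference between the WT subsets, and Fads2 as the gene with no counts in either DKO library. Capitals mark matches on either strand to TCACNCCAC (the core of a sterol regulatory element), CCAAT (the NF-Y box) and CACGTG (an E box). The windows are chr13:119690101-119690400 on the plus strand for Hmgcs1, chr5:28071162-28071461 on the plus strand for Insig1, chrX:8193463-8193762 on the minus strand for Ebp, chr11:120824498-120824797 on the minus strand for Fasn, and chr19:10101454-10101753 on the minus strand for Fads2.
Hmgcs1: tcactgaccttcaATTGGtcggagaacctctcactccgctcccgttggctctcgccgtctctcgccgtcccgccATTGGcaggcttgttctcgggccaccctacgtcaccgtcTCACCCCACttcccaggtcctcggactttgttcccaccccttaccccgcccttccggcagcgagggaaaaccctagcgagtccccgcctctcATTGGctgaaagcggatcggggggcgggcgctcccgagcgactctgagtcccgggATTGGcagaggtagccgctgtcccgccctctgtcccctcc
Insig1: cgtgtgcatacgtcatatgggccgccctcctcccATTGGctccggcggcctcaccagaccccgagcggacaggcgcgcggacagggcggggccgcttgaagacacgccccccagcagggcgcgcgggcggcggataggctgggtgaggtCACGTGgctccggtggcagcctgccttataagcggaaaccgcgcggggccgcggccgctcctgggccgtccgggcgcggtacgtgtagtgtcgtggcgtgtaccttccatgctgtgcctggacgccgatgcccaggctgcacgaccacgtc
Ebp: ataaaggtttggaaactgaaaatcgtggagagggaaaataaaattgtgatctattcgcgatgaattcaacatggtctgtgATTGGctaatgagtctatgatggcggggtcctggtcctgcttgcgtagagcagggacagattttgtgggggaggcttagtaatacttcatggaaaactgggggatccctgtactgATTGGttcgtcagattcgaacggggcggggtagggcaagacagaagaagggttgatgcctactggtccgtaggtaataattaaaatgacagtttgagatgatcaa
Fasn: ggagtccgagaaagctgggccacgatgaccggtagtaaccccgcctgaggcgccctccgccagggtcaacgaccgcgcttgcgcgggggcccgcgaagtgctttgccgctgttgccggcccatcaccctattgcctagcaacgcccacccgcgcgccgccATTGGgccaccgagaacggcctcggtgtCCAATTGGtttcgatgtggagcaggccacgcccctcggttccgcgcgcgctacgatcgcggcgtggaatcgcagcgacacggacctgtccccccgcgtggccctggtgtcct
Fads2: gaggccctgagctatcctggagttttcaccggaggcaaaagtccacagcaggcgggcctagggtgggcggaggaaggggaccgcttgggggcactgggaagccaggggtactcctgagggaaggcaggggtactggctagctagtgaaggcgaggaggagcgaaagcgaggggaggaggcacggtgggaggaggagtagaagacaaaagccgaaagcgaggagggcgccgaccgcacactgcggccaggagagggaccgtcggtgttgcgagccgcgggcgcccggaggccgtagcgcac

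The sterol element core was found in the window of 1 of the 24 genes, Hmgcs1, with its first base 137 bases before the start, and in 1.44% of all 27025 genes with a window. The CCAAT box was found in 19 of the 24 genes (79.2%), against 41.1% of all 27025 genes with a window. Hmgcs1 held 4 CCAAT matches, Ebp 2 and Insig1 1. Fasn held 3, of which 2 overlap in an 8-base run of capitals. The E box was found in 5 of the 24 genes (20.8%), namely Insig1, Hsd17b7, Dhcr7, Sc5d and Scap, against 8.09% of all genes with a window. None of the 3 motifs was found in the Fads2 window, which says only that these letters are not in these 300 bases. A match is a description of the sequence and does not show that a factor binds there. Fdps, Fdft1, Sqle, Stard4, Scd1, Scd2 and Fads1 had no window in the table.

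Library totals ran from 6818658 to 11635037 counts. Il17a had 0 and 3 counts in DKO CXCR6+ and DKO SLAMF6+, against 1622 to 4751 in the 10 WT libraries. Il17f had 1 count in each DKO library, against 174 to 1458 in the WT libraries. Cxcr6 stood at 382 CPM (counts scaled to a common library size) in DKO CXCR6+ cells and 162 CPM in DKO SLAMF6+ cells, but its difference between the WT subsets was not called (26.3 ± 16.3 against 16.1 ± 2.93 CPM, SD, n = 5 each). Of 11 T cell markers, Cd3e and Cd4 were at 141 to 578 and 187 to 337 CPM across all libraries, but Trbc2, a constant segment of the receptor, was at 1800 and 2030 CPM in DKO CXCR6+ and DKO SLAMF6+, against 23300 ± 4280 and 30000 ± 2100 CPM in WT CXCR6+ and WT SLAMF6+. The 11 summed to 7190 and 8140 CPM in the DKO libraries, against 22200 to 39200 CPM in the WT libraries. In the WT libraries Trbc2 was most of this sum. Taken gene by gene, the median log2 difference of the 11 was positive. It was 0.58 for DKO CXCR6+ against WT CXCR6+ and 0.64 for DKO SLAMF6+ against WT SLAMF6+. Of the glial markers, Mog and Gfap had 0 to 4 counts per library, while Aldoc, Gja1, Cnp and Mbp had many more in some groups, with values beside the comparisons. Trbv16, the segment of the 2D2 receptor, made up 9.96% and 6.51% of all Trbv counts in the DKO libraries and 99.6 to 99.8% in the WT libraries, so most Trbv counts of the DKO libraries did not come from the labelled receptor. The DKO SLAMF6+ library held 11.9% haemoglobin counts, and its list of 12 myeloid markers summed to 63.9 CPM, against 24.6 to 34.4 CPM in WT SLAMF6+. The 5 WT CXCR6+ libraries had 12.9 to 17.6% mitochondrial counts, against 2.2 to 5.24% in the 5 WT SLAMF6+ libraries. The mitochondrial gene mt-Ts1 had no counts in replicate 1 of WT CXCR6+ or in replicates 1, 3, 4 and 5 of WT SLAMF6+, and 111496 counts or more elsewhere. CPM below are scaled with TMM (edgeR's normalisation between libraries).

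**Figure D1:**
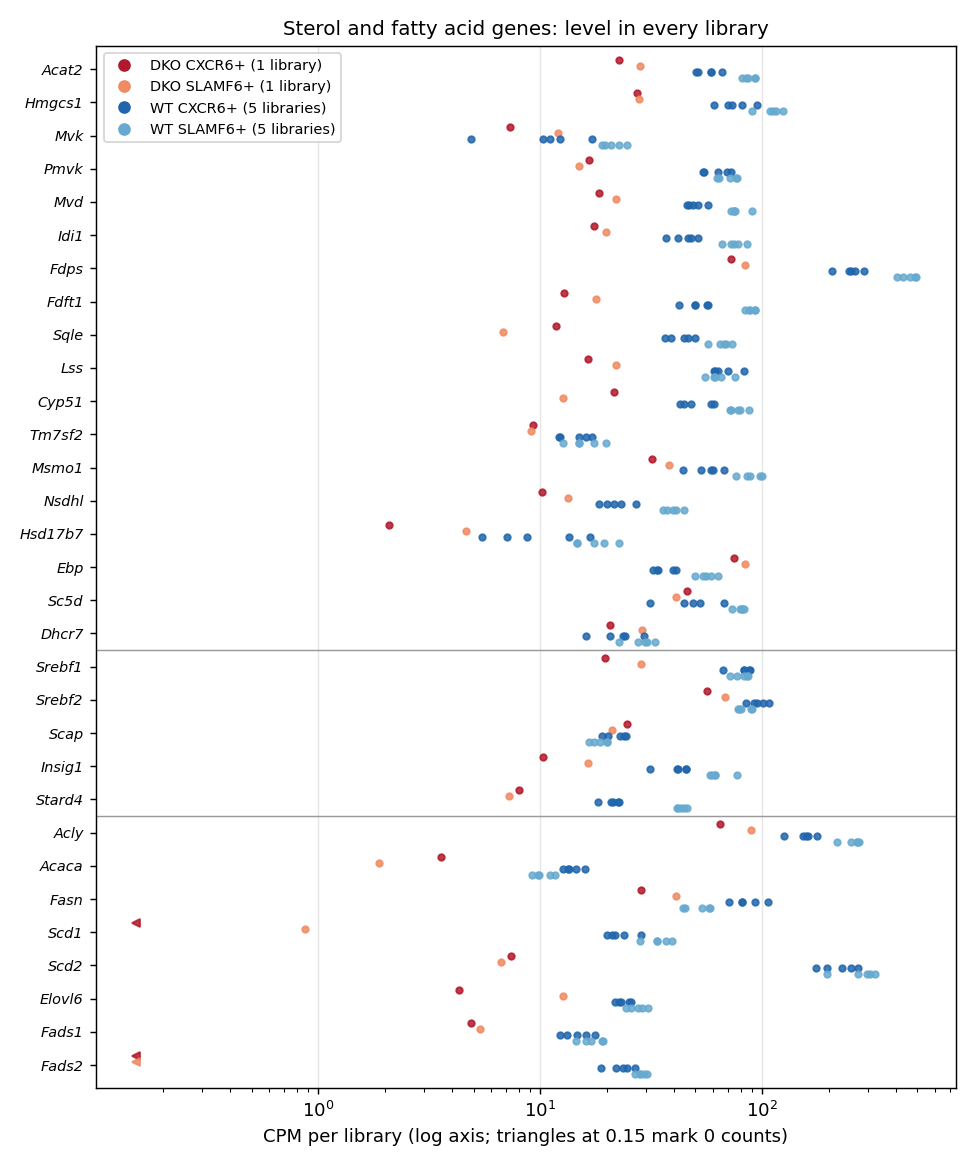
Level of each of the 31 genes in every library, in CPM on a log axis, with genes down the page by role (sterol enzymes, SREBP control and sterol transport, fatty acid synthesis). Each point is 1 library, and triangles mark 0 counts. Scd1, Scd2 and Fads2 show the widest gaps between the DKO libraries and the WT libraries, and Ebp is the sterol enzyme gene with both DKO points above all WT points.

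Per kilobase of the longest annotated transcript, Fdps was the most abundant of the 31 genes in both WT subsets, at a level of 84.9 CPM per kb in WT CXCR6+ against 155 CPM per kb in WT SLAMF6+. Fdps encodes farnesyl diphosphate synthase, which stands where the sterol and isoprenoid branches part. The least abundant was Acaca, which encodes the acetyl-CoA carboxylase that makes malonyl-CoA, at 1.47 and 1.08 CPM per kb in WT CXCR6+ and WT SLAMF6+. Between them, the stearoyl-CoA desaturase genes differed in level, with Scd2 at 41 and Scd1 at 4.75 CPM per kb in WT CXCR6+, and 50.9 and 7.08 CPM per kb in WT SLAMF6+. Levels per kb rest on the annotated transcript length and not on the isoforms that these cells use.

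The first comparison asked how the sorted subsets of WT cells differ. Sterol enzymes were lower in WT CXCR6+ cells than in WT SLAMF6+ cells along most of the route from acetyl-CoA to cholesterol. Of the 18 enzymes, 13 were called lower and 0 higher at an adjusted p under 0.05 (edgeR's quasi-likelihood test, Benjamini-Hochberg adjustment over all 21565 genes), where 17.7% of all genes tested were called lower and 15.6% higher. Their differences had a median log2 of -0.64, against 0.13 over all genes tested. The 18 enzymes together summed to 975 ± 104 CPM in WT CXCR6+ against 1520 ± 90.2 CPM in WT SLAMF6+ (SD, n = 5 each), with ranges of 873 to 1140 and 1380 to 1610 CPM that did not overlap. Over all 31 genes, 18 were called lower and 2 higher, and 16 genes had all 5 WT CXCR6+ libraries below all 5 WT SLAMF6+ libraries (15.0% of all genes tested), while 2 had them all above (12.8%).

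In the upper part of the route, Acat2 encodes the thiolase that joins acetyl-CoA units, and its level ranged from 50.4 to 65.5 CPM in WT CXCR6+ and from 80.6 to 92.9 CPM in WT SLAMF6+ (log2 difference -0.62 ± 0.08 SE). Hmgcs1, which makes HMG-CoA and whose window carries the sterol element above, was lower by less (log2 -0.53 ± 0.12, adjusted p = 0.00585), and its ranges of 60.9 to 94.6 and 90.1 to 124 CPM overlapped. The Hmgcs1 call was lost with a term for the libraries without mt-Ts1 counts (log2 -0.38, adjusted p = 0.085). Mvk, the mevalonate kinase gene, had 11, 12.2, 17.1, 4.88 and 10.3 CPM in WT CXCR6+ against 24.5, 19, 22.5, 20.9 and 19.5 CPM in WT SLAMF6+. The lowest WT SLAMF6+ library was above the highest WT CXCR6+ library (log2 -0.94 ± 0.26, adjusted p = 0.0172), though the WT CXCR6+ values spread widely and the call was lost without replicate 1 or 5 of both subsets (adjusted p = 0.0741 and 0.0588). Pmvk, the kinase of the next step, was at 53.9 to 72.1 CPM in WT CXCR6+ against 62.8 to 76.8 CPM in WT SLAMF6+ and was not called (log2 -0.16, adjusted p = 0.232). Mvd and Idi1, which make the isoprenoid units, were lower by log2 -0.63 and -0.75.

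Fdps had 206, 247, 252, 286 and 261 CPM in WT CXCR6+, against 432, 406, 463, 488 and 495 CPM in WT SLAMF6+. Every WT CXCR6+ library was below every WT SLAMF6+ library (log2 -0.87 ± 0.09, adjusted p = 2.96e-05). Fdft1, squalene synthase and the first enzyme committed to sterols, had 49.9, 49.7, 42, 56.8 and 56.3 CPM in WT CXCR6+ against 87.6, 93.1, 92.3, 83.7 and 87 CPM in WT SLAMF6+. Its groups were also apart (log2 -0.80 ± 0.08, adjusted p = 3.19e-05). Sqle, the squalene epoxidase gene, was at 36.3 to 49.6 CPM in WT CXCR6+ against 56.9 to 73 CPM in WT SLAMF6+ (log2 -0.62 ± 0.10).

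Lss, the cyclase that forms lanosterol, broke the pattern, with 60.4 to 82.3 CPM in WT CXCR6+ against 55 to 75.1 CPM in WT SLAMF6+ (log2 0.09 ± 0.11, adjusted p = 0.557). After lanosterol, the demethylation enzymes Cyp51, Msmo1 and Nsdhl were lower by log2 -0.61, -0.66 and -0.85, and for each of them the subsets did not overlap. Ebp, the sterol isomerase, was lower by log2 -0.65 and Sc5d, the desaturase after it, by log2 -0.70. Of the other late enzymes 3 were not called, namely Tm7sf2, a sterol reductase (log2 -0.13), Dhcr7, the last reductase of the route (log2 -0.33, adjusted p = 0.128), and Hsd17b7, a ketoreductase (log2 -0.78 ± 0.29, adjusted p = 0.062), whose WT CXCR6+ values ran from 5.47 to 16.8 CPM. Tm7sf2 shares 532 bases on the same strand with Vps51, and Lss lies across an antisense gene, so some of their counts may belong to a neighbour. The same limit holds for genes that were called. Fdps shares 7512 bases on the same strand with Gm43738 and Mvd 9822 bases with Gm20388, both annotated as protein-coding. Hmgcs1 shares 6190 bases with an antisense gene, and Acaca 19126 bases with Gm11437.

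**Figure D2:**
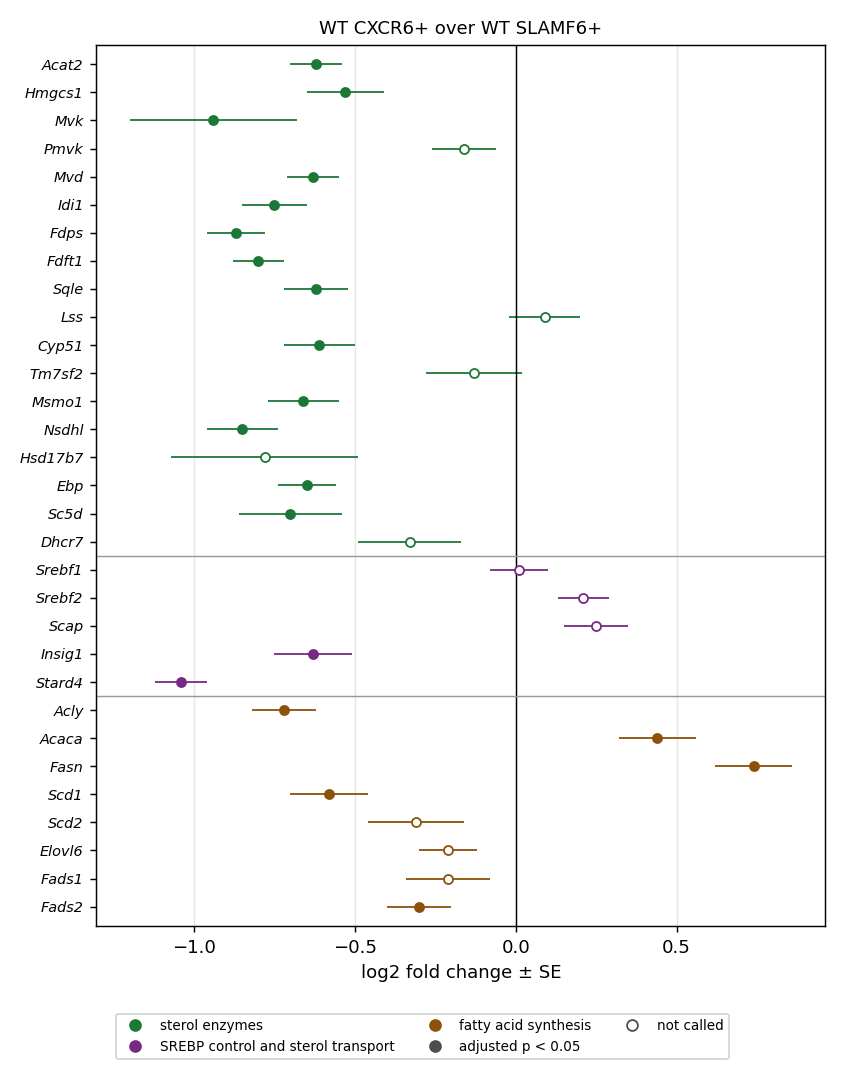
Log2 fold change ± SE of each of the 31 genes in WT CXCR6+ over WT SLAMF6+ (5 libraries each), coloured by role, with filled points for an adjusted p under 0.05. Most sterol enzymes lie between -0.5 and -1, Stard4 is lowest at -1.04, and Acaca and Fasn lie to the right of 0 at 0.44 and 0.74.

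Among the control genes, Stard4 and Insig1 were called lower, while Srebf1, Srebf2 and Scap were not called. Stard4, which carries cholesterol between membranes, had 18.2, 22.6, 20.9, 22.4 and 21.2 CPM in WT CXCR6+, against 43, 41.1, 44.6, 41.5 and 46 CPM in WT SLAMF6+. This was the lowest log2 difference of the 31 genes (-1.04 ± 0.08, 2.05-fold lower, adjusted p = 3.47e-06), and the values within each subset stayed close together. Insig1, the retention protein that is itself an SREBP target, had 41.3, 41.8, 31.3, 45.4 and 45.5 CPM in WT CXCR6+ against 58.1, 61.3, 59.5, 61.4 and 76.7 CPM in WT SLAMF6+ (log2 -0.63 ± 0.12, adjusted p = 0.00159). Neither SREBP gene was called: Srebf1 averaged 81.4 ± 8.7 CPM in WT CXCR6+ against 80.6 ± 6.22 CPM in WT SLAMF6+ (log2 0.01, 95% interval -0.16 to 0.18), and Srebf2 averaged 95.8 ± 8.68 and 83 ± 5.9 CPM (log2 0.21, interval 0.06 to 0.36, adjusted p = 0.0591). Scap was not called either (log2 0.25 ± 0.10, adjusted p = 0.0859). The direction of these 3 depended on the processing: with only genes of at least 10 CPM in 5 libraries tested, Srebf1, Srebf2 and Scap were called higher (log2 0.28, 0.47 and 0.51), and with GC and length offsets (a spline of fold change on GC content and transcript length removed) Srebf1 and Srebf2 were called lower (log2 -0.49 and -0.38).

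Fatty acid enzymes were divided. Of the 8, 3 were called lower (17.7% of all genes tested were) and 2 higher (15.6%). The 8 summed to 563 ± 57 CPM in WT CXCR6+ against 701 ± 57 CPM in WT SLAMF6+, with ranges of 500 to 616 and 635 to 759 CPM. Acly, which splits citrate into cytosolic acetyl-CoA for both pathways, had 177, 157, 161, 153 and 125 CPM in WT CXCR6+, against 267, 217, 267, 250 and 272 CPM in WT SLAMF6+ (log2 -0.72 ± 0.10, adjusted p = 0.000167). Scd1 was lower by log2 -0.58, with libraries that overlapped, and Fads2, the delta-6 desaturase of polyunsaturated fatty acids, by log2 -0.30 (adjusted p = 0.0365), a call lost in 11 of 15 settings that left out libraries. Scd2, Elovl6 and Fads1 were not called, at log2 -0.31, -0.21 and -0.21.

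The enzymes that build the fatty acid chain went the other way. Fasn, the fatty acid synthase gene, had 80.8, 81, 70.6, 106 and 92.4 CPM in WT CXCR6+, against 44.7, 44.1, 58.2, 57.5 and 53.4 CPM in WT SLAMF6+ (log2 0.74 ± 0.12, adjusted p = 0.000801). Acaca had 15.9, 14.5, 13.4, 12.7 and 13.3 CPM in WT CXCR6+ against 11.6, 11.1, 9.79, 9.14 and 9.89 CPM in WT SLAMF6+ (log2 0.44 ± 0.12, adjusted p = 0.0177). In both genes every WT CXCR6+ library was above every WT SLAMF6+ library, though the Acaca call was lost in 3 of 15 settings that left out libraries (adjusted p = 0.0514 to 0.0593). They also have the longest transcripts of the 31, at 10050 and 9513 nucleotides. Longer genes tended to be higher in WT CXCR6+ throughout the table: the Spearman correlation of log2 difference and transcript length was 0.39 over the 31 genes and 0.38 over 7672 genes above 10 CPM, across genes that share the same libraries. With GC content it was 0.43 over the 31 genes and 0.09 over the 7672. The offsets remove both together. With those offsets, 24 of the 31 genes were called lower (19.7% of all genes tested so) and 0 higher (13.8%), Fasn stood at log2 -0.25 (adjusted p = 0.248) and Acaca at -0.18 (adjusted p = 0.222), so the higher calls of these 2 genes do not hold under that setting.

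**Figure D3:**
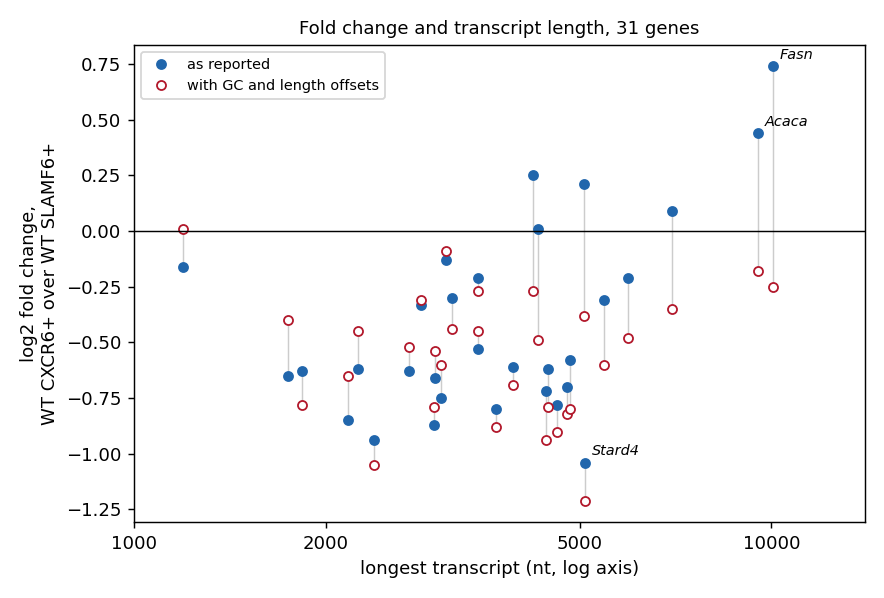
Log2 fold change of WT CXCR6+ over WT SLAMF6+ against the longest annotated transcript (log axis) for the 31 genes, as reported (filled) and with GC and length offsets (open), joined by a line for each gene. Fasn and Acaca, at the far right, move from 0.74 and 0.44 to -0.25 and -0.18, while Stard4 stays below -1.

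Other processing moved the WT counts as well. When only genes of at least 10 CPM in 5 libraries were tested, 17 of the 31 were called lower (30.4% of the 8114 genes tested) and 6 higher (35%), with a median of log2 -0.35 over the 31 and 0.02 over all genes tested. The 4 added genes were Lss, Srebf1, Srebf2 and Scap. With a term for the libraries without mt-Ts1 counts 14 of the 31 were called lower (13.4% of all genes tested), and the lower calls lost were those of Hmgcs1, Mvk, Scd1 and Fads2. Within the libraries with mt-Ts1 at 0 (1 against 4) 9 of the 31 were called lower (9.41% of all genes tested, median log2 of the 31 -0.56), and within those with mt-Ts1 counts (4 against 1) 5 were (7.39%, median log2 -0.43).

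Genes of cell division and of fatty acid burning moved in the same direction, where 17.7% of all genes tested were called lower and 15.6% higher. Of 20 proliferation genes, 16 were called lower and 1 higher in WT CXCR6+, and the list summed to 2190 ± 110 CPM in WT CXCR6+ against 3410 ± 250 CPM in WT SLAMF6+. Stmn1, a tubulin-binding protein of dividing cells, was lower by log2 -0.89 ± 0.09. Of 20 genes of fatty acid oxidation, 17 were lower and 0 higher, with a median log2 of -0.69. Among them Hadh and Eci2, enzymes of mitochondrial oxidation, stood at 34.8 ± 3.36 and 70.6 ± 5.28 CPM in WT CXCR6+, and at 75.2 ± 4.57 and 143 ± 8.33 CPM in WT SLAMF6+. Some markers of other cell types were lower as well. The 7 astrocyte markers summed to 103 ± 11.7 CPM in WT CXCR6+ against 214 ± 10.1 CPM in WT SLAMF6+, with 2 of 3 tested called lower (Aldoc, log2 -1.19, and Gja1, log2 -0.91), while Gfap had 0 to 3 counts per library. The 9 oligodendrocyte and myelin markers summed to 98.5 ± 10.1 CPM in WT CXCR6+ against 189 ± 17 CPM in WT SLAMF6+, with 3 of 5 tested called lower (Cnp, log2 -1.04, Ermn, log2 -0.93, and Mbp, log2 -0.51), while Mog had 0 or 1 count. The 12 myeloid markers summed to 13.6 ± 4.43 CPM in WT CXCR6+ against 29 ± 3.52 CPM in WT SLAMF6+, with 1 of 11 tested called lower and 1 higher. The lower one, Tmem119, was at 2.88 ± 1.57 CPM in WT CXCR6+ against 18 ± 3.42 CPM in WT SLAMF6+. The higher one, C1qa, was at 0.375 ± 0.326 against 0.0196 ± 0.0438 CPM. The median log2 of the 11 was 0.97, so the lower sum did not reflect most of the list. The part that all these shifts, the mitochondrial share or the mt-Ts1 split play in the sterol genes was not tested. In bulk RNA, fewer cells of a type and less RNA per cell cannot be told apart.

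Genes around the pathway were mixed, where 17.7% of all genes tested were called lower and 15.6% higher. Of 10 other genes of SREBP processing, 4 were lower and 1 higher; Insig2, the second retention protein, was at 20 ± 3.19 CPM in WT CXCR6+ against 35.6 ± 3.78 CPM in WT SLAMF6+ (log2 -0.83). Erlin1, which takes part in degrading sterol-regulated proteins, was lower by log2 -1.12. Of 14 genes of the isoprenoid branches, 5 were lower and 4 higher, among them Ggps1, which makes geranylgeranyl diphosphate, at log2 -0.72, and Coq2, of ubiquinone synthesis, at log2 1.12. Of 22 other genes of fatty acid and lipid synthesis that were tested, 9 were lower and 1 higher, with Slc25a1, the citrate carrier that feeds Acly, at log2 -0.58 ± 0.08. Of 16 genes of the liver X receptors, which sense oxysterols, and of sterol efflux, 5 were lower and 2 higher, with Npc2, which exports cholesterol from lysosomes, at log2 -1.24 ± 0.11. Of 3 tested genes of oxysterol enzymes and their receptor, none was called by edgeR.

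The second question was how cells without IL-17A and IL-17F differ from WT cells. In both DKO libraries nearly the whole set was lower. In DKO CXCR6+ against WT CXCR6+, 25 of the 31 genes were called lower (15.9% of all genes tested were) and 1 higher (12.8%), with a median log2 of -1.48, against -0.22 over all genes. In DKO SLAMF6+ against WT SLAMF6+, 24 were called lower (17.5%) and 1 higher (13.5%), with a median log2 of -1.67, against -0.05 over all genes. The DKO CXCR6+ library lay below all 5 WT CXCR6+ libraries in 26 of the 31 genes (28.1% of all genes tested) and above them in 2 (29.6%). The DKO SLAMF6+ library lay below all 5 WT SLAMF6+ libraries in 28 (30.9%) and above them in 2 (35.1%). Each DKO group is 1 library, assumed in the test to vary like the WT libraries, so a difference of genotype and a difference of that library, host or receptor repertoire cannot be told apart. Both DKO libraries bear the replicate number 0, and whether they came from the same host is not given. One pair is therefore not shown to be an independent repeat of the other.

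**Figure D4:**
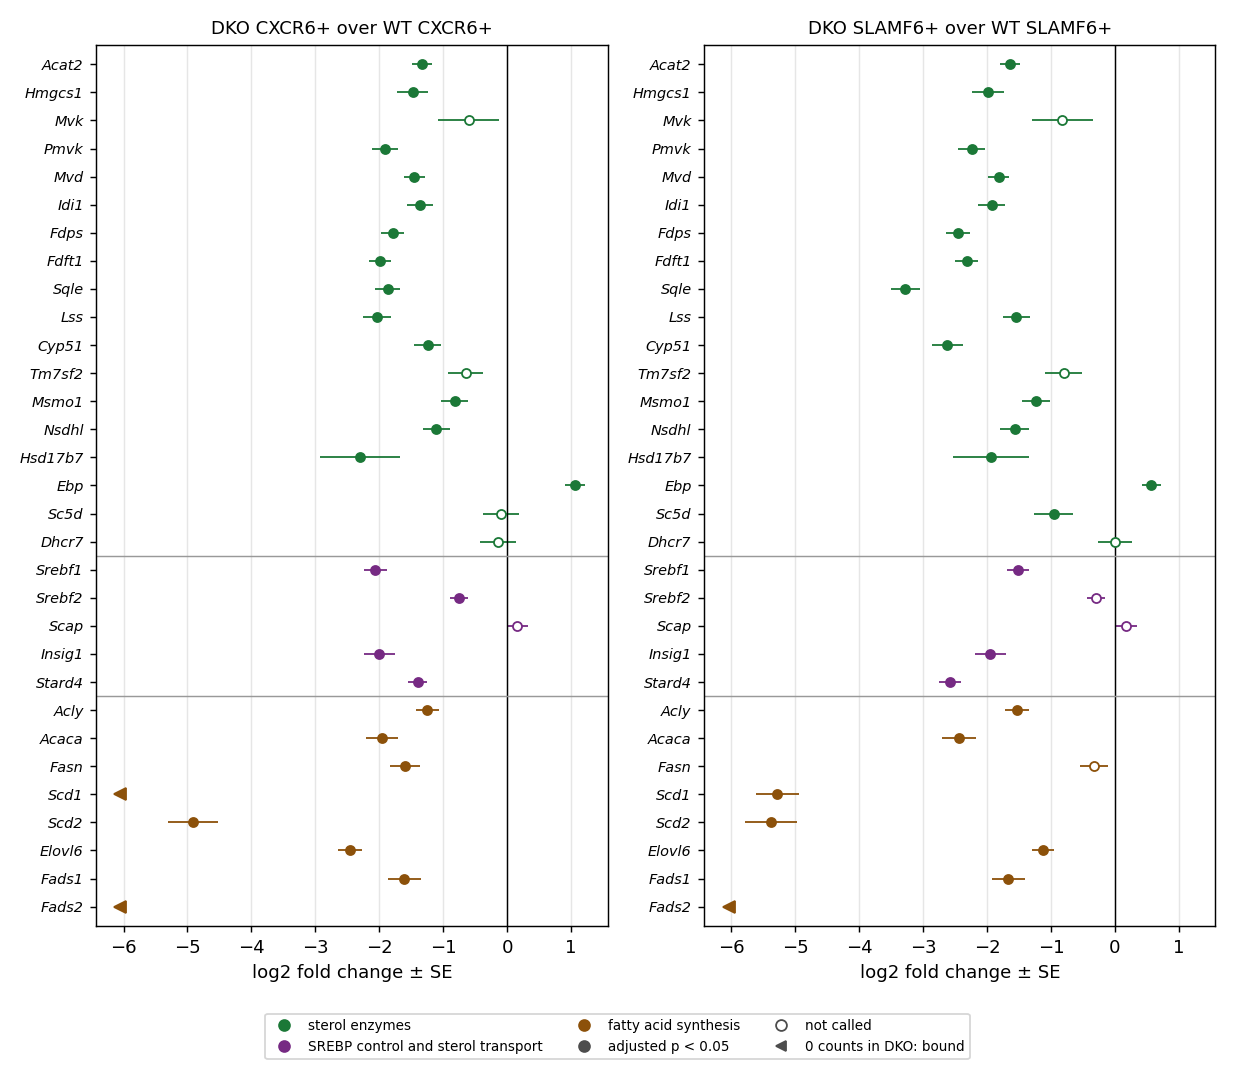
Log2 fold change ± SE of the 31 genes in DKO CXCR6+ over WT CXCR6+ (left) and DKO SLAMF6+ over WT SLAMF6+ (right), 1 library against 5 in each panel. Filled points had an adjusted p under 0.05, and triangles are bounds for genes with 0 DKO counts, set at 3 counts. Scd1, Scd2 and Fads2 lie near -5 or beyond, most others between -1 and -3, and Ebp lies to the right of 0 in both panels.

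The sterol enzymes summed to 439 CPM in DKO CXCR6+ against 873 to 1140 CPM in WT CXCR6+, and to 486 CPM in DKO SLAMF6+ against 1380 to 1610 CPM in WT SLAMF6+. Of the 18, 13 were called lower and 1 higher in the CXCR6+ pair, and 14 lower and 1 higher in the SLAMF6+ pair. The shares of all genes tested were 15.9% lower and 12.8% higher in the CXCR6+ pair, and 17.5% and 13.5% in the SLAMF6+ pair. Fdps was at 72.3 CPM in DKO CXCR6+, against 251 ± 29 CPM in WT CXCR6+ (3.47-fold lower), and at 83.8 CPM in DKO SLAMF6+, against 457 ± 37.6 CPM in WT SLAMF6+ (5.45-fold lower). Fdft1 was 3.97-fold lower in DKO CXCR6+ and 4.98-fold lower in DKO SLAMF6+. Hmgcs1, at 27.3 CPM in DKO CXCR6+ cells and 27.8 CPM in DKO SLAMF6+ cells, was 2.78-fold lower than in WT CXCR6+ and 3.95-fold lower than in WT SLAMF6+. Pmvk, which did not part the WT subsets, was 3.77-fold and 4.71-fold lower, at 16.6 and 14.9 CPM in DKO CXCR6+ and DKO SLAMF6+. Lss was likewise lower, by log2 -2.04 ± 0.22 in the CXCR6+ pair and -1.54 ± 0.21 in the SLAMF6+ pair.

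Ebp was the exception among the called genes. It had 74.8 CPM in DKO CXCR6+, against 34, 39.4, 32.1, 40.9 and 33.4 CPM in WT CXCR6+ (log2 1.06 ± 0.15, adjusted p = 0.000256). It had 83.7 CPM in DKO SLAMF6+, against 49.7, 55.9, 62.9, 58.8 and 54 CPM in WT SLAMF6+ (log2 0.57 ± 0.15, adjusted p = 0.0138), a call that was lost with no filter on low counts (adjusted p = 0.0515) and with the mt-Ts1 term (adjusted p = 0.0654). Dhcr7 was within the WT range in both pairs, at 20.6 CPM in DKO CXCR6+ cells and 28.7 CPM in DKO SLAMF6+ cells. Mvk and Tm7sf2 were not called in either pair, and Sc5d was called in the SLAMF6+ pair (log2 -0.96, adjusted p = 0.0323) and not in the CXCR6+ pair (log2 -0.09). The Sc5d call was lost in 6 of 15 settings that left out libraries, among them those without WT SLAMF6+ replicate 3, 4 or 5 (adjusted p = 0.0506 to 0.0516).

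Srebf1 was at 19.5 CPM in DKO CXCR6+, against 87.7, 83, 66.4, 87 and 83 CPM in WT CXCR6+ (log2 -2.06 ± 0.18, adjusted p = 9.39e-06). In DKO SLAMF6+ it was at 28.4 CPM, against 77, 71.6, 85.4, 82.6 and 86.3 CPM in WT SLAMF6+ (log2 -1.51 ± 0.17, adjusted p = 6.78e-05). The DKO value was far below the lowest WT library in both pairs. Srebf2 was lower by less, at 56.5 CPM in DKO CXCR6+ against 84.7 to 107 CPM in WT CXCR6+ (log2 -0.76 ± 0.14, adjusted p = 0.00183). At 67.6 CPM in DKO SLAMF6+, against 77.4 to 89.7 CPM in WT SLAMF6+, it was not called (log2 -0.29, adjusted p = 0.128). Scap was not called in either pair, at log2 0.16 and 0.18, though it was called higher in the SLAMF6+ pair when only genes of at least 10 CPM in 5 libraries were tested (log2 0.48, adjusted p = 0.0292). Insig1 was 3.99-fold lower in DKO CXCR6+ (10.3 CPM) and 3.87-fold lower in DKO SLAMF6+ (16.4 CPM). Stard4 was 2.64-fold lower in DKO CXCR6+ (7.98 CPM) and 5.96-fold lower in DKO SLAMF6+ (7.24 CPM).

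Scd2, Scd1 and Fads2 had the lowest differences. Scd2 was at 7.4 CPM in DKO CXCR6+, against 252, 269, 175, 228 and 196 CPM in WT CXCR6+ (30.2-fold lower, log2 -4.92 ± 0.39, adjusted p = 4.42e-06). In DKO SLAMF6+ it was at 6.66 CPM, against 322, 271, 305, 295 and 196 CPM in WT SLAMF6+ (41.6-fold lower, log2 -5.38 ± 0.40, adjusted p = 3.46e-06). Scd1 had 0 counts in DKO CXCR6+, against 20 to 28.3 CPM in WT CXCR6+, which at 3 counts for that library means at least 66.2-fold lower. It had 6 counts, 0.869 CPM, in DKO SLAMF6+, against 28.1 to 39.2 CPM in WT SLAMF6+ (38.8-fold lower, log2 -5.28 ± 0.34). The genes of these enzymes are neighbours, at chr19:44394455-44407879 (Scd1) and chr19:44293674-44306864 (Scd2) in GRCm38.

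Fads2 had 0 counts in both DKO libraries. In WT CXCR6+ it had 23.6, 26.6, 18.8, 24.6 and 21.9 CPM and in WT SLAMF6+ 28.2, 30.3, 28.2, 29.4 and 26.7 CPM, so at 3 counts it was at least 66.6-fold lower in DKO CXCR6+ and at least 65.7-fold lower in DKO SLAMF6+. These bounds cover counting error only. Its neighbour Fads1, the delta-5 desaturase, was lower by far less, at 4.86 CPM in DKO CXCR6+ (3.04-fold lower) and 5.36 CPM in DKO SLAMF6+ (3.19-fold lower). Fads2 lies at chr19:10062765-10101746 on the minus strand and Fads1 at chr19:10182888-10196877 on the plus strand (GRCm38).

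Fatty acid enzymes before the desaturases were also lower. Acly was 2.39-fold lower in DKO CXCR6+ (64.7 CPM) and 2.88-fold lower in DKO SLAMF6+ (88.5 CPM). Acaca, at 31 and 13 counts in DKO CXCR6+ and DKO SLAMF6+, was 3.88-fold and 5.44-fold lower. Fasn was at 28.3 CPM in DKO CXCR6+, against 70.6 to 106 CPM in WT CXCR6+ (log2 -1.60 ± 0.24, adjusted p = 0.000467), but at 41 CPM in DKO SLAMF6+, just under the WT SLAMF6+ range of 44.1 to 58.2 CPM, it was not called (log2 -0.33, adjusted p = 0.294). Elovl6, which lengthens palmitate, was lower by log2 -2.46 ± 0.19 in the CXCR6+ pair and -1.12 ± 0.17 in the SLAMF6+ pair. Summed over the 8 genes, the level was 113 CPM in DKO CXCR6+ against 500 to 616 CPM in WT CXCR6+, and 157 CPM in DKO SLAMF6+ against 635 to 759 CPM in WT SLAMF6+.

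**Figure D5:**
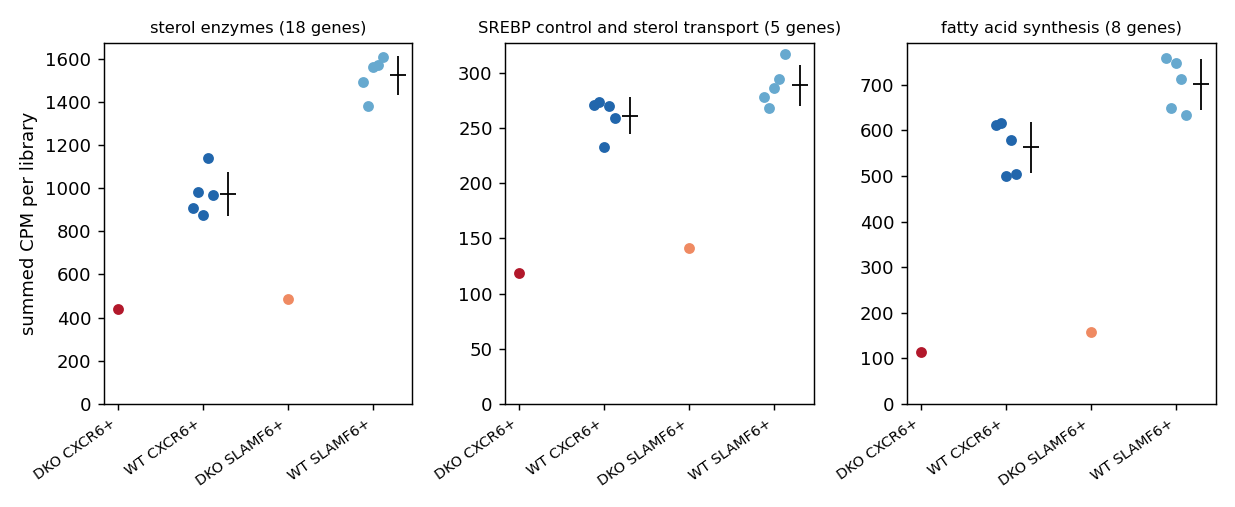
Summed CPM per library of the 18 sterol enzymes, the 5 genes of SREBP control and sterol transport and the 8 fatty acid enzymes, with the mean ± SD of the 5 WT libraries beside the points. In all 3 panels the DKO library of a subset lies below all 5 WT libraries, and for sterol and fatty acid enzymes WT CXCR6+ lies below WT SLAMF6+.

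Whether the DKO difference itself differed between the subsets was tested as an interaction, where a positive value means a difference less negative in the CXCR6+ pair. Of the 31 genes, 5 were called (10.3% of all genes tested). Sqle had a difference of log2 -1.87 in the CXCR6+ pair (11.8 CPM in DKO CXCR6+) and -3.28 in the SLAMF6+ pair (6.81 CPM in DKO SLAMF6+), an interaction of 1.41 ± 0.27 (adjusted p = 0.00857). For Cyp51 the values were -1.24 (21.5 CPM in DKO CXCR6+ cells) and -2.62 (12.6 CPM in DKO SLAMF6+ cells), with an interaction of 1.39 ± 0.28 (adjusted p = 0.0121). Stard4 had an interaction of 1.18 ± 0.20 (adjusted p = 0.00603). Both fatty acid genes called ran the other way, with Elovl6 at -1.35 ± 0.23 (adjusted p = 0.00559) and Fasn at -1.27 ± 0.31 (adjusted p = 0.025). The interaction of Fasn was not called with GC and length offsets (-0.55, adjusted p = 0.47), and those of Sqle and Fasn were not called by limma-voom (adjusted p = 0.0653 and 0.0513). Sqle was also not called with a random replicate block (adjusted p = 0.0605), nor Stard4 with a replicate block plus GC and length offsets (1.15, adjusted p = 0.0699).

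The DKO libraries were also set directly against each other, with no test since each is 1 library. The log2 ratio of DKO CXCR6+ to DKO SLAMF6+, with a prior count of 2, had a median of -0.25 over the 31 genes and ran from -2.31 (Scd1, 0 against 6 counts) to 0.86 (Acaca, 31 against 13 counts). A difference of at least 2-fold was seen in 3 of the 31 genes (9.68%), namely Scd1, Elovl6 and Hsd17b7, against 30.5% of all genes tested and 7.71% of 7557 genes of at least 10 CPM in the mean of the DKO libraries. All 3 had few counts, at most 87 in a DKO library.

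The proliferation genes were lower in the DKO libraries too. They summed to 975 CPM in DKO CXCR6+ against 2030 to 2320 CPM in WT CXCR6+, and to 970 CPM in DKO SLAMF6+ against 3150 to 3740 CPM in WT SLAMF6+, with 16 of 20 called lower and 1 higher in the CXCR6+ pair and 19 lower and 0 higher in the SLAMF6+ pair. Of all genes tested, 15.9% were called lower and 12.8% higher in the CXCR6+ pair, and 17.5% and 13.5% in the SLAMF6+ pair. Top2a, a topoisomerase of dividing cells, was lower by log2 -2.32 and -2.22. Red cell markers summed to 144000 CPM in DKO SLAMF6+ and to 3.59 CPM or less in each of the other libraries. Removing the haemoglobin genes left the counts of the 31 genes at 24 lower and 1 higher in the SLAMF6+ pair. The 7 astrocyte markers summed to 3.47 CPM in DKO CXCR6+ against 103 ± 11.7 CPM in WT CXCR6+, and to 2.46 CPM in DKO SLAMF6+ against 214 ± 10.1 CPM in WT SLAMF6+, with all 3 tested called lower in both pairs. Aldoc was lower by log2 -4.62 and -9.75 and Gja1 by log2 -6.33 and -5.94, and Gfap and Slc1a2 were at 0 in both DKO libraries. The 9 oligodendrocyte and myelin markers summed to 255 CPM in DKO CXCR6+ against 98.5 ± 10.1 CPM in WT CXCR6+, and to 239 CPM in DKO SLAMF6+ against 189 ± 17 CPM in WT SLAMF6+, with 3 of 5 tested called higher and 1 lower in both pairs. Cnp was higher by log2 1.77 and 0.71 and Mbp by log2 2.11 and 1.18, while Ermn was lower by log2 -4.12 and -5.94. The 12 myeloid markers summed to 21.3 CPM in DKO CXCR6+ against 13.6 ± 4.43 CPM in WT CXCR6+. In DKO SLAMF6+ they summed to 63.9 CPM, against 29 ± 3.52 CPM in WT SLAMF6+. The median log2 difference of the 11 tested was -1.79 in the CXCR6+ pair and 4.45 in the SLAMF6+ pair. The part of proliferation, of the receptor repertoire or of the glial and myeloid markers in these differences was not tested.

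Around the pathway, the DKO libraries were less uniform, where 15.9% of all genes tested were called lower and 12.8% higher in the CXCR6+ pair, and 17.5% lower and 13.5% higher in the SLAMF6+ pair. Of the 10 other genes of SREBP processing, 1 was lower and 2 higher in the CXCR6+ pair, and 3 were lower and 1 higher in the SLAMF6+ pair, with Erlin1 lower in both (log2 -1.45 and -3.24). Of the 22 other genes of fatty acid and lipid synthesis, 7 were lower and 4 higher in the CXCR6+ pair, and 9 were lower and 2 higher in the SLAMF6+ pair. Slc25a1 was lower by log2 -1.69 and -2.47, at 23.1 and 20.1 CPM in DKO CXCR6+ and DKO SLAMF6+, against 74.5 ± 6 CPM in the WT CXCR6+ libraries and 112 ± 8.95 CPM in WT SLAMF6+. Acss2, which makes acetyl-CoA from acetate, stood at 53.1 CPM in DKO CXCR6+ against 17.2 ± 2.4 CPM in WT CXCR6+ (log2 1.62 ± 0.17). Acsl3, a fatty acid activating enzyme, had 0 CPM in both DKO libraries, against 8.29 ± 1.8 CPM in the WT CXCR6+ libraries and 5.62 ± 0.811 CPM in WT SLAMF6+.

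Of the 16 genes of the liver X receptors and sterol efflux, 2 were lower and 3 higher in the CXCR6+ pair, and 3 were lower and 2 higher in the SLAMF6+ pair, shares near those of all genes tested. Mylip, a liver X receptor target that marks lipoprotein receptors for degradation, was at 12.6 CPM in DKO CXCR6+ against 0.428 ± 0.279 CPM in WT CXCR6+, and at 7.24 CPM in DKO SLAMF6+ against 0.815 ± 0.41 CPM in WT SLAMF6+ (log2 4.84 and 3.14). Lpcat3, of the same list, was lower in both pairs (log2 -1.42 and -0.91), and Npc2 was lower in the SLAMF6+ pair (log2 -2.02). Gpr183, the oxysterol receptor that guides lymphocyte migration, was at 34.9 CPM in DKO CXCR6+ against 12.8 ± 1.66 CPM in WT CXCR6+, and at 53 CPM in DKO SLAMF6+ against 15.2 ± 0.619 CPM in WT SLAMF6+ (log2 1.44 and 1.81). It belongs to the list of oxysterol enzymes and their receptor, where Hsd3b7 went the other way in the SLAMF6+ pair (log2 -2.26). Of the 14 genes of the isoprenoid branches, 2 were lower and 1 higher in the CXCR6+ pair, and 5 were lower and 0 higher in the SLAMF6+ pair, with Rabggtb, a subunit of the enzyme that prenylates Rab proteins, lower in both (log2 -1.46 and -1.16). Of the 20 genes of fatty acid oxidation, 7 were lower and 5 higher in the CXCR6+ pair and 12 were lower and 0 higher in the SLAMF6+ pair, with medians of log2 -0.33 and -0.81.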

How the data were processed

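RNA of 12 libraries (5 WT CXCR6+, 5 WT SLAMF6+, 1 DKO CXCR6+, 1 DKO SLAMF6+) was made with a modified SMART-Seq2 protocol and Nextera XT and sequenced as paired reads of 38 bases on a NextSeq 500, per the labels' protocols. Expected counts, deposited as whole numbers in a single gene table, came from RSEM 1.3.3 and STAR 2.7.7a with build mm10, per the submitters' processing notes. Annotation and read filters: not given in the sources used here. Such libraries do not mark the strand, and 16 of the 31 genes overlap another annotated gene (7 a protein-coding one). Acat2 has a near-identical paralog, Acat3. Of the symbols, 41368 (87.3%) matched GENCODE M21, the source of coordinates and lengths.

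All 12 libraries entered a single edgeR 4.0.16 fit in R 4.3.3: TMM, filterByExpr by group, quasi-likelihood test, Benjamini-Hochberg over 21565 genes, threshold 0.05 (common dispersion 0.396, 8 residual degrees of freedom). Alternatives used DESeq2 1.42.0 (size factors, Wald test), limma 3.58.1 (voom), other filters, offsets, a replicate block and left-out libraries; those on mt-Ts1 and haemoglobin were chosen after seeing the data. A gene with 0 counts in a DKO library was set to 3 counts of that library for a bound. Bounds cover counting error only, and intervals are 1.96 SE of the fit on either side. Totals of at least 6818658 counts put 1 CPM at several counts. The text names all 31 genes and up to 4 called genes by smallest p of each other list (3 in the DKO pairs). It also names the targeted genes Il17a and Il17f and the sort gene Cxcr6, while no level of Slamf6 RNA is given. One further marker of the cell type check is not reported here. The 31 genes and the other lists were chosen with earlier results of these data known.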

Additional observations from a re-analysis of the deposited data

Results flagged for a closer look

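Within the WT groups of 5, 3 of 68 sets of values had a library far from the others, where chance alone puts about 1 in 20. Srebf1 was at 66.4 CPM in WT CXCR6+ replicate 3, against 83 to 87.7 CPM in the other 4 libraries. In WT SLAMF6+ replicate 5, Mvd was at 89.8 CPM, against 72.6 to 75.5 CPM in the others, and Insig1 was at 76.7 CPM, against 58.1 to 61.4 CPM.

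The difference between DKO and WT differed between the subsets in 5 of the 31 genes, by the interaction term, which called 10.3% of all genes tested, and each DKO group is 1 library. It was less negative in the CXCR6+ pair for Sqle (1.41), Cyp51 (1.39) and Stard4 (1.18), and more negative there for Fasn (-1.27) and Elovl6 (-1.35).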

How the results depend on the processing

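Lower calls ran from 23 to 25 in the CXCR6+ DKO pair and from 22 to 25 in the SLAMF6+ DKO pair over all settings run. Leaving out each WT library or number gave 16 to 20 lower and 1 to 3 higher calls between the WT subsets, 25 lower and 1 higher in the CXCR6+ DKO pair, 22 to 25 lower and 1 higher in the SLAMF6+ DKO pair, and 4 to 6 interactions. Higher calls between the WT subsets, 2 as reported, numbered 4 with DESeq2 size factors, with DESeq2's Wald test and with only those groups fitted, 6 with the 10 CPM filter, 1 with no filter, with the mt-Ts1 term and within libraries with mt-Ts1 counts, and 0 with GC and length offsets (with or without the replicate block), at a 2-fold minimum and within libraries with mt-Ts1 at 0. Lower calls there numbered 1 at a 2-fold minimum (Stard4), 9 within libraries with mt-Ts1 at 0 and 5 within those with counts, where fewer libraries were compared. The single higher call of the SLAMF6+ DKO pair, Ebp, became 0 with no filter, at 2-fold and with the mt-Ts1 term, and 2 with the 10 CPM filter. Interactions numbered 3 with limma-voom and with block plus offsets, and 9 with the 10 CPM filter. The cause was not tested. Reversed values were Fasn (-0.25) and Acaca (-0.18) with offsets, with or without the block.

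Same-numbered WT libraries did not deviate together (correlations -0.01 to 0.03). With the replicate block 17 genes were called lower between the WT subsets, all among the 18, and 2 higher; Fads2 was lost (adjusted p = 0.0527).

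Depth limits the members with few counts in the DKO libraries, such as Fads2 (0 and 0), Scd1 (0 and 6), Acaca (31 and 13) and Hsd17b7 (18 and 32 in DKO CXCR6+ and DKO SLAMF6+), and a single DKO library per subset allows no spread of its own.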

Other observations

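Idi2, a second isopentenyl diphosphate isomerase gene outside the 31, was looked at after its values were seen. It had 2 counts in DKO CXCR6+ and 0 in DKO SLAMF6+, against 45 to 124 counts in WT CXCR6+ and 58 to 141 counts in WT SLAMF6+. Cpt1c, of the oxidation list, had 0.116 CPM in DKO CXCR6+, against 7.99 ± 2.21 CPM in WT CXCR6+, and no counts in DKO SLAMF6+, against 6.71 ± 1.55 CPM in WT SLAMF6+ (SD, n = 5).

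Scd2 and Scd1 had similar ratios wherever both had counts, a comparison chosen after their values were seen. The ratio of Scd2 to Scd1 counts was 7.67 in DKO SLAMF6+ (46 and 6 counts), 8.26 to 10.6 in WT CXCR6+ and 5.31 to 9.64 in WT SLAMF6+. In DKO CXCR6+ it had no value, with 64 counts of Scd2 and 0 of Scd1.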
